A study of Rattus norvegicus with 4 samples.

Results

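The genes described here make the machinery that reads messenger RNA and the proteins that package it: translation initiation factors (Eif), elongation factors (Eef), tRNA synthetases, heterogeneous nuclear ribonucleoproteins (Hnrnp) and serine- and arginine-rich splicing factors (Srsf). They were chosen by name, as all probe sets whose only gene symbol in the platform annotation starts with Eif, Eef, Hnrnp or Srsf, or ends in ars or ars1. The rule found 72 of 8740 probe sets, which stood for 43 of 4736 named genes: 17 initiation factors, 5 regulators of initiation and elongation, 4 elongation factors, 4 tRNA synthetases, 9 hnRNP proteins and 4 SR splicing factors. The rule itself uses names and no signal.

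The tissue was myometrium, the muscle layer of the uterus, from rats of 60 days whose ovaries had been removed a week earlier. A single array carried RNA pooled from 6 animals in each of 4 groups: estradiol benzoate, a slowly released ester of estradiol, at 10 µg per kg under the skin for 24 h, its vehicle for 24 h, the same dose for 6 h, and vehicle for 6 h. The strain was not given in the sources used here. With 1 array per group the differences within a time compare 2 pools and have no replicate error, so they were not tested.

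A value is a MAS5 signal, a probe set's brightness after its mismatch signal is taken off, scaled to a trimmed mean of 500 on each array. Signals under an array's 40th percentile, which lay between 89.5 and 108, were raised to that floor, and a probe set counted as higher or lower when 2 arrays differed at least 2-fold with the brighter one above its floor. Each time had a scan day of its own, which cannot be told apart from time, and the instrument logged a communication error while washing the 24 h control. Smooth muscle markers fit the labelled tissue, with 11 of the 11 on the array above the floor on all 4 arrays. The labels at 6 h are in doubt. Igf1, Pgr, S100g and Hsd11b2, all induced by estrogen in the rat uterus, were 2.74-fold to 7.79-fold higher with estradiol at 24 h, but 5.79-fold to 11.2-fold lower under the estradiol label than under the control label at 6 h. All directions at 6 h below are therefore those of the labels.

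Translation starts when eIF2 brings the initiator tRNA to the small ribosomal subunit, eIF3 and the cap-binding eIF4 factors join it to the messenger RNA, and eIF5 and eIF5B let the large subunit join. Elongation factors then deliver aminoacyl-tRNAs, which the synthetases charge with their amino acids, and move the ribosome along. hnRNP and SR proteins coat new transcripts in the nucleus, where they steer splicing and export. In the uterus estrogen is known to raise protein synthesis and to make the muscle layer grow.

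Tars1, Eif3b and Hnrnpab had a probe set at least 2-fold higher with estradiol at 24 h and at least 2-fold lower with the estradiol label at 6 h, and their promoters are shown for that reason. Each is 300 bases of the RefSeq GRCr8 build, 250 before the annotated start and 50 from it on, on the minus strand. Capitals mark CACGTG, the E-box bound by Myc and related factors, and, in Tars1 alone, the core TGATGNAA of the amino acid response element, which lies there on the opposite strand as TTGCATCA.
Tars1, chr2:62114753-62115052: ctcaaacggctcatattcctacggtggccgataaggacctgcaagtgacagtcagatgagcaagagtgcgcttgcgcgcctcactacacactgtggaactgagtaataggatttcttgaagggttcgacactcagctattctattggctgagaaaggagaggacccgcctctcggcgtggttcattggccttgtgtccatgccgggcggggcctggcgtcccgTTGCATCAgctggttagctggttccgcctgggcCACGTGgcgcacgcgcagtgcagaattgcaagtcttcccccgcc
Eif3b, chr12:19334719-19335018: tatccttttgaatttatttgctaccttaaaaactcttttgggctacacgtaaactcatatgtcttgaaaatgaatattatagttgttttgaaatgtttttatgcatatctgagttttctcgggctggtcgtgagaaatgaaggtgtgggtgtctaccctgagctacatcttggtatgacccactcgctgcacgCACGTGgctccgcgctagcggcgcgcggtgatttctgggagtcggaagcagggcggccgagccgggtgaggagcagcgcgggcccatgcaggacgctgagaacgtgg
Hnrnpab, chr10:36363849-36364148: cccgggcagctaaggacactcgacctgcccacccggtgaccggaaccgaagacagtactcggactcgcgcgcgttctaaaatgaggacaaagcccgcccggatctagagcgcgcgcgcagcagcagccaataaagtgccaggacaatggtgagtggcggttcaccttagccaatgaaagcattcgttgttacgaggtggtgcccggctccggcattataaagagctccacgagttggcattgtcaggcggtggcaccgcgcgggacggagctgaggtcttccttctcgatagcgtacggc
The E-box began at base 7 of the Tars1 transcript, counting its first base as 1, and at base -57 before the start of Eif3b, and Hnrnpab had none. The amino acid response core began at base -27 of Tars1.

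Both strands of 41 promoters of the set, all that had an entry (the first listed per gene), were searched for these letters and for the estrogen response element GGTCANNNTGACC. The E-box letters stood in 11 of 41, or 26.8%, against 8.50% of the 3872 promoters of genes on the array and 6.65% of all 27457. They were in Eef2, Eef2k, Eif3b, Eif4e, Eif4h, Hnrnpa3, Hnrnpd, Hnrnpm, Iars1, Tars1 and Vars1. The amino acid response core stood in Iars1 and Tars1, 4.88% against 2.30% of promoters of genes on the array. The estrogen response element stood in 0 of 41 and in 7 of the 27457. A match of letters is a description and no measured binding site. Among measured genes, the 10 with the E-box letters had a median log2 difference of 0.47 at 24 h and -0.55 at 6 h, against 0.22 and -0.31 for the 28 without. The ranges overlapped: -0.46 to 1.10 with the letters and -1.29 to 2.15 without at 24 h.

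Of the 72 probe sets 60 were above the floor on all 4 arrays, 5 on 1 to 3 arrays and 7 on none. The comparisons below concern the other 65 probe sets, or the 40 genes whose brightest probe set was above the floor on at least 1 array. Iars1, the isoleucine tRNA synthetase, Eef1a2, the elongation factor form of skeletal muscle, heart and neurons, and Srsf10 were not above the floor on any array, so no fold is given for them.

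At 24 h, 7 of 65 probe sets were at least 2-fold higher with estradiol, or 10.8%, against 8.3% of all 6157 measured probe sets. Another 3 were at least 2-fold lower, or 4.62%, against 8.36% of all. These shares are close to those of the whole array. Counted by gene, 3 of 40 were higher (Tars1, Hnrnpab and Hnrnpc), against 8.68% of all 3619 genes, and 1 was lower (Srsf5), against 8.04%. The median log2 difference of the 65 probe sets was 0.16, against -0.17 for all, a value set by the ratio of the 2 floors. Scaled to 1 common median, 11 were higher and 1 was lower, against 630 and 368 of all probe sets in place of 511 and 515, and the median of all moved to -0.03. Beside Srsf5, the lower probe sets were 1 each of Eef1a1 and Hnrnpa2b1, at log2 differences of -1.03 and -1.01 and so just past the rule. With the 6 h control as the comparator, 4 were higher and 6 lower, and against the mean of both controls 1 was higher and 3 lower.

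At 6 h the split was turned round: 3 of 65 probe sets were at least 2-fold higher on the array labelled estradiol, against 6.94% of all, and 7 were lower, or 10.8%, against 5.38% of all. By gene, Eef2k was higher, against 6.47% of all genes, and Tars1, Hnrnpab, Eif2s1, Srsf2 and Eif3b were lower, 12.5% against 5.08%. The median log2 difference was -0.25 over the set and -0.07 over all probe sets. With the 24 h control as the comparator, 6 were higher and 2 lower, and against the mean of both controls 3 were higher and 0 lower. The 2 comparisons share no array. Among the 40 genes 20 had a log2 difference above 0 at 24 h and below 0 at 6 h, or 50.0%, against 23.3% of the 3619 genes. Another 9 were above 0 at both times, 8 below 0 at both, and 3 below 0 at 24 h and above 0 at 6 h. A gene at the floor on both arrays of a time has its sign set by the floors, so the count was also taken over genes above the floor on all 4 arrays, a choice made after seeing the data: 20 of 37, or 54.1%, against 23.6% of 2652. Scaled to medians, the first count over the 40 genes was again 20, against 27.1% of all genes, and with quantile normalization it was 19, against 26.1%. Of probe sets past 2-fold at both times, 3 were higher at 24 h and lower at 6 h, against 1.51% of all, while 0 had the reverse pattern, against 1.93%, and 0 the same direction at both, against 0.65%. Taken singly, 29 of the 40 genes were above 0 at 24 h and 28 below 0 at 6 h. These signs were not particular to the set. Cytosolic ribosomal protein genes had 25 and 30 of 41, and nucleolar ribosome biogenesis genes 8 and 8 of 9. Other splicing and RNA-binding genes had 10 and 13 of 19, and other translation factors and regulators 4 and 4 of 9.

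**Figure D1:**
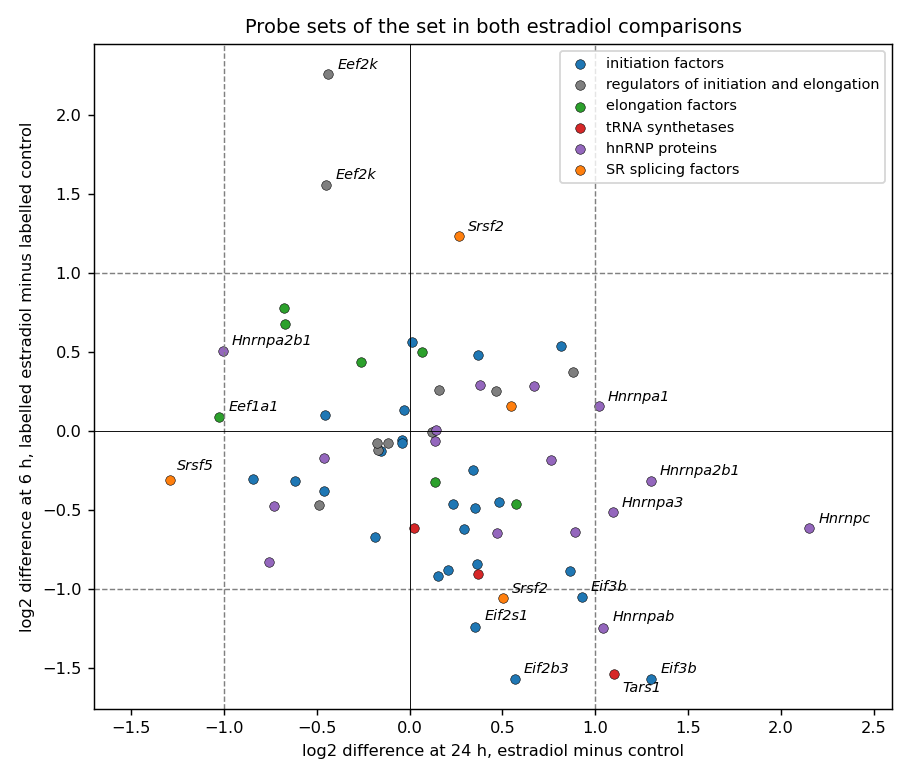
Each point is a probe set of the set above the floor on at least 1 array, 65 in all, with its log2 difference at 24 h (estradiol minus control) on the horizontal axis, its log2 difference at 6 h (labelled estradiol minus labelled control) on the vertical axis and its class in colour. Dashed lines mark 2-fold. The lower right corner holds Tars1, Eif3b and Hnrnpab, and the points with names are those past 2-fold on either axis.

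Some epithelial markers were also higher at 24 h and lower at 6 h. Their summed signal over 8 genes was 3652 in estradiol and 1318 in control tissue at 24 h, and 802 under the estradiol label and 1910 under the control label at 6 h. Of these genes 7 were above the floor on some array and 2 on all, and Krt5 was on none. At 24 h 5 of the 7 were at least 2-fold higher and Muc1 and Krt14 were below 0, and at 6 h 3 were at least 2-fold lower and Krt14 was above 0. Krt19, Krt8 and Krt18 made up most of the sum with estradiol at 24 h. The sum of 11 smooth muscle markers was 119117 against 110663 at 24 h and 84586 against 99184 at 6 h in the same order. Leukocyte markers summed to 6052 against 7723 and to 6337 against 8489, but they differed among themselves at 24 h, with Lyz2 3.25-fold higher and RT1-Da 3.44-fold lower. Over 9 measured leukocyte markers 2 were at least 2-fold higher and 3 lower at 24 h. Endothelial markers summed to 761 against 1348 and to 1044 against 1325, and endometrial stroma markers to 51641 against 51406 and to 39419 against 35274. That stroma sum hides lower markers: 8 of 10 were below 0 at 24 h, but so were 2234 of all 3619 genes. The median log2 difference of the stroma markers was -0.48, against -0.17 over all genes, a value set by the ratio of the floors. Past the 2-fold rule 3 stroma markers were lower (Mme, Vcam1 and Cd44) and 0 higher, where 8.04% of all genes were lower. Mme and Vcam1 were at the floor with estradiol at 24 h, so their folds are minimum values. The part of other cell types in the differences was not tested, and fewer cells of a type and less RNA per cell cannot be told apart in tissue RNA.

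The fit of both times together, limma with treatment and time as terms and 1 residual degree of freedom, asks for the same difference at both times. It called 0% of the 6157 probe sets for treatment after Benjamini-Hochberg adjustment, with 104 at an unadjusted p under 0.05, and none of those 104 belonged to the set. The lowest adjusted p of the set in that limma fit was 0.999. Differences of opposite sign at the 2 times cancel in the treatment term. By the labels Igf1 had log2 differences of 2.96 at 24 h and -3.48 at 6 h. Tars1, at 1.10 and -1.54, had a treatment term of -0.22. With the labels at 6 h in doubt, the fit therefore cannot decide whether such genes differ with treatment. For time the limma fit also called 0% of all probe sets, and 3 probe sets of the set had an unadjusted p under 0.05, 1 of Eef1a1 and 2 of Eef2.

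Initiation factors were the largest class by number, and as a class they had a median log2 difference of 0.23 at 24 h and -0.45 at 6 h over 25 probe sets. At 24 h 1 was at least 2-fold higher and 0 lower, against 8.3% and 8.36% of all probe sets, and at 6 h 4 were lower and 0 higher, against 5.38% and 6.94%. Of the 17 genes by their brightest probe sets, 0 were higher and 0 lower at 24 h, against 8.68% and 8.04% of all genes. At 6 h 2 of these genes were lower and 0 higher, against 5.08% and 6.47%. The sign was positive for 16 of the 25 at 24 h, against 2300 of all 6157 probe sets. At 6 h it was negative for 20 of the 25, against 3384 of the 6157. Raising the floor to the 60th percentile took the median at 24 h to 0.01.

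Eif3b, the scaffold subunit of eIF3, had a pair of probe sets of the same sequence entry. Its brighter probe set gave 3439 with estradiol against 1809 without it at 24 h, and 1912 under the estradiol label and 3955 under the control label at 6 h. The other gave 3331 against 1351 at 24 h and 1176 against 3486 at 6 h. Both probe sets had their 2 high values in the estradiol pool at 24 h and in the pool labelled control at 6 h. The folds were 1.90 and 2.47 higher at 24 h and 2.07 and 2.97 lower at 6 h, so the brighter one stayed just under the rule at 24 h, and passed it under the scaling by medians. Of the other eIF3 subunits, Eif3d, which can bind the cap itself, gave 1610 against 1315 at 24 h and 1519 against 2337 at 6 h. Eif3m gave 792 against 785 at 24 h and 834 against 565 at 6 h, with the array labelled control the lowest of the 4. Eif3d thus had the signs of Eif3b at both times, though within 2-fold, while Eif3m had the opposite sign at 6 h.

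Eif2s1 encodes the alpha subunit of eIF2, the site where stress kinases act. It gave 1941 with estradiol against 1518 without it at 24 h, and 1548 under the estradiol label and 3662 under the control label at 6 h. The last of these stood alone above the other 3 arrays, which made the gene 2.37-fold lower with the estradiol label and 1.28-fold higher with estradiol at 24 h. The gamma subunit gene Eif2s3 had the opposite sign at 6 h, with 1354 against 969, and read 1379 against 1068 at 24 h.

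The subunits of eIF2B, the exchange factor that reloads eIF2 with GTP, were within 2-fold by their brightest probe sets. Eif2b1 came nearest, with 586 against 526 at 24 h and 448 against 847 at 6 h, 1.89-fold lower with the estradiol label and past 2-fold with quantile normalization. Eif2b5 gave 202 against 158 at 24 h and 135 against 189 at 6 h. Eif2b2 and Eif2b4 had log2 differences of -0.45 and -0.03 at 24 h and 0.10 and 0.13 at 6 h. A second probe set of Eif2b3, U38253_at, was 2.97-fold lower with the estradiol label at 6 h (183 against 544), while the probe set of the same entry named U38253_g_at was 1.19-fold lower and the brightest one, rc_AI639441_at, 1.30-fold lower. Eif2d, which can bring tRNA to the ribosome without eIF2, was higher at both times, at 1.76-fold (444 against 252) and 1.46-fold (331 against 227).

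Among the cap-binding group, Eif4e2, a relative of eIF4E known to repress translation, gave 1401 with estradiol against 770 without it at 24 h, and 802 under the estradiol label and 1483 under the control label at 6 h. The high and low arrays were those of Eif3b, at 1.82-fold higher and 1.85-fold lower, under the 2-fold rule. Eif4e, the cap-binding protein itself, gave 647 against 503 at 24 h and 514 against 922 at 6 h. Eif4a2, an RNA helicase, was lower with estradiol at 24 h on both probe sets, 4253 against 7639 and 4665 against 7147, and lower with the estradiol label at 6 h, 6113 against 7560 and 5987 against 7468. Its probe sets carry the suffixes _f and _i, which Affymetrix gave to designs shared with other sequences of a family or incomplete ones, and signal from relatives was not tested. Eif4h, which aids the helicase, had small differences, with log2 differences from -0.16 to -0.04 at 24 h and -0.13 to -0.06 at 6 h over 3 probe sets.

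Eif5, which makes eIF2 hydrolyse its GTP, gave 549 against 626 at 24 h and 621 against 990 at 6 h on its brightest probe set. Eif5b, which joins the ribosomal subunits, gave 981 against 702 at 24 h and 1539 against 2100 at 6 h. Both arrays at 24 h lay below both at 6 h for Eif5b, and the controls differed 2.99-fold.

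**Figure D2:**
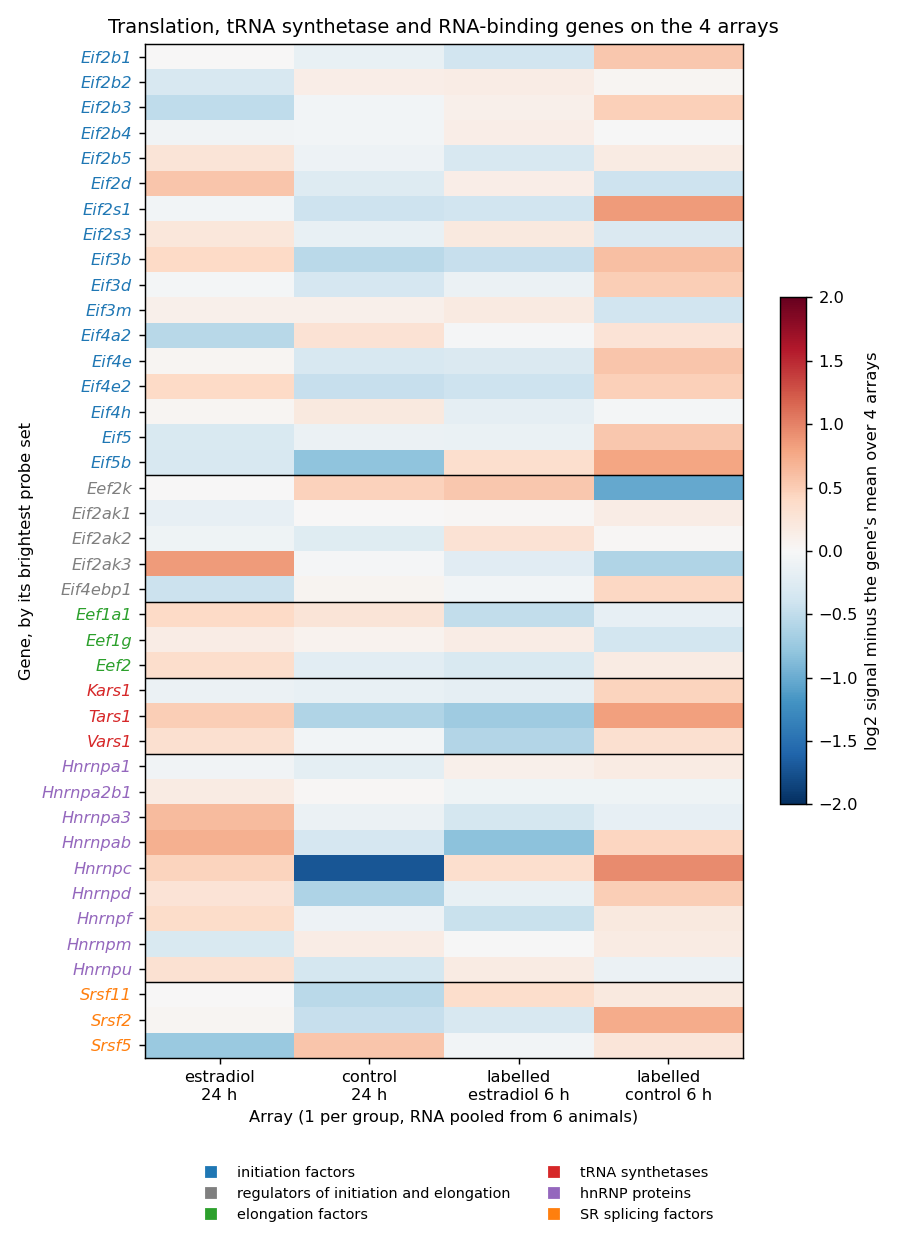
Each row is 1 of the 40 measured genes by its brightest probe set, each column 1 of the 4 arrays, and the colour is the log2 signal minus the gene's mean over the arrays, from -2 (blue) to 2 (red), with gene names coloured by class. Eif2s1, Eif3b, Tars1 and Hnrnpc are red on the array labelled control at 6 h, Hnrnpc is darkest blue on the control at 24 h, and Eef2k is blue on the array labelled control at 6 h.

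The regulators of initiation and elongation did not share that order. Eef2k, the kinase that phosphorylates Eef2 and so slows elongation, gave 394 with estradiol against 537 without it at 24 h, and 567 under the estradiol label and 192 under the control label at 6 h. Its second probe set, X96426_at, gave 159 against 215 at 24 h and 1079 against 225 at 6 h. The gene was 2.95-fold and 4.79-fold higher with the estradiol label at 6 h and 1.36-fold lower on both probe sets at 24 h. The probe sets differ in which array stands apart at 6 h, since the first is low on the array labelled control and the second is high on the array labelled estradiol.

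Of the kinases that phosphorylate the eIF2 alpha subunit, Eif2ak3, the endoplasmic reticulum stress sensor PERK, gave 298 with estradiol against 162 without it at 24 h, or 1.84-fold higher. At 6 h it gave 141 on the array labelled estradiol and was at the floor on the array labelled control, a log2 difference of 0.38. Its second probe set, near the floor on all arrays, read 96.2 against 104 at 24 h and did not show that difference. Eif2ak2, the double-stranded RNA sensor PKR, gave 271 against 243 at 24 h and 350 against 293 at 6 h, and Eif2ak1, the heme-regulated kinase, was above the floor on 1 array. Eif4ebp1, which holds eIF4E back, gave 1363 against 1910 at 24 h and 1766 against 2445 at 6 h on its brightest probe set, while both probe sets of another entry had log2 differences of 0.12 and 0.47 at 24 h.

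Elongation factors were bright on all arrays, apart from Eef1a2. Eef1a1, which delivers aminoacyl-tRNA, gave 12065 with estradiol against 10976 without it at 24 h, and 6527 under the estradiol label and 8166 under the control label at 6 h. Eef1g, of its exchange complex, gave 7742 against 7395 at 24 h and 7744 against 5469 at 6 h. Eef2, which moves the ribosome by a codon, gave 10729 against 7224 at 24 h and 6786 against 9328 at 6 h on its brightest probe set. By their brightest probe sets none of these 3 genes reached 2-fold in an estradiol comparison. Their log2 differences ran from 0.07 to 0.57 at 24 h and from -0.46 to 0.50 at 6 h. Over the 7 measured probe sets of the class the median was -0.26 at 24 h and 0.44 at 6 h. The other measured probe sets of Eef2 had signs opposite to its brightest at both times. They ran from -0.68 to -0.26 at 24 h and from 0.44 to 0.78 at 6 h, against 0.57 and -0.46 for the brightest.

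Other probe sets of Eef1a1 and Eef2 were split by time. A second probe set of Eef1a1, rc_AI008852_at, gave 169 and 344 on the estradiol and control arrays at 24 h, against 1447 and 1359 on the arrays labelled estradiol and control at 6 h, and is also the one counted above as lower with estradiol at 24 h. Of Eef2, rc_AA892801_at gave 1665 and 2662 at 24 h against 804 and 468 at 6 h, and rc_AA963674_at gave 4907 and 5892 against 3809 and 2809. Both arrays at 24 h were at least 2-fold below both at 6 h for the Eef1a1 probe set, a pattern of 0.585% of all probe sets, and at least 2-fold above them for rc_AA892801_at, a pattern of 0.39%. In the limma fit the time terms were -2.54 (unadjusted p = 0.00411) and 1.78 (unadjusted p = 0.0222) on the log2 scale, each with an adjusted p of 0.938. The brightest probe sets of these genes did not show it: their time terms were 0.66 for Eef1a1 and 0.15 for Eef2.

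The tRNA synthetases charge tRNAs with amino acids. Tars1, for threonine, was high and low on the same arrays as Eif3b, at 1966 with estradiol against 918 without it at 24 h, and 855 under the estradiol label and 2483 under the control label at 6 h. It was 2.14-fold higher at 24 h and 2.90-fold lower at 6 h, and these calls held under each scaling and floor and with the pseudocount. Vars1, for valine, gave 466 against 361 at 24 h and 250 against 469 at 6 h, 1.88-fold lower with the estradiol label. Kars1, for lysine, gave 1001 against 985 at 24 h and 961 against 1473 at 6 h, with the array labelled control at 6 h above the other 3. All 3 measured synthetases were thus below 0 at 6 h, with log2 differences from -1.54 to -0.62, and none was below 0 at 24 h, with values from 0.02 to 1.10. Of all 2652 genes above the floor on all 4 arrays, 48.5% were below 0 at 6 h and 39.7% above 0 at 24 h.

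The hnRNP proteins had the highest class median at 24 h, a log2 difference of 0.57 over 16 probe sets, of which 5 were at least 2-fold higher and 1 was lower, against 8.3% and 8.36% of all probe sets. Of the 9 hnRNP genes by their brightest probe sets, 2 were higher and 0 lower, against 8.68% and 8.04% of all genes. At 6 h their median was -0.25, with 1 lower and 0 higher, against 5.38% and 6.94%. By the brightest probe set, 8 of 8 genes above the floor on all 4 arrays were above 0 at 24 h, against 39.7% of all 2652 such genes. That subset was taken after seeing the data. The remaining gene, Hnrnpm, was below 0 and near the floor. Over probe sets 12 of 16 were above 0 and 4 below, against 2300 above of all 6157. With the mean of its probe sets Hnrnpa1 was at -0.08. Hnrnpc, which binds uridine-rich stretches of nascent RNA, gave 1751 with estradiol against 394 without it at 24 h, and 1625 under the estradiol label and 2492 under the control label at 6 h. Its 4.44-fold difference at 24 h rests on the control array, the lowest of the 4 by more than 4-fold. That array was at least 2-fold below each of the other 3 for 186 of all probe sets, or 3.02%, and Hnrnpc was the single one in the set. Against the 6 h control Hnrnpc was not higher with estradiol at 24 h.

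Hnrnpab, a regulator of messenger RNA processing, gave 5455 with estradiol against 2649 without it at 24 h, and 1890 under the estradiol label and 4498 under the control label at 6 h, a 2.06-fold higher and a 2.38-fold lower value. Its log2 difference at 24 h was 0.94 with quantile normalization, under the rule. Hnrnpd, the AU-rich element binder AUF1, gave 728 against 392 at 24 h and 545 against 849 at 6 h, and Hnrnpf 3643 against 2632 and 2074 against 3241. In these 3 genes, as in Tars1 and Eif3b, the control at 24 h and the pool labelled estradiol at 6 h lay below the other pair. Hnrnpu, a nuclear scaffold protein, was higher at both times, with 4391 against 2760 at 24 h and 3963 against 3257 at 6 h.

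Probe sets of the A-type hnRNP genes disagreed. For Hnrnpa2b1, rc_AA799523_g_at was 2.46-fold higher with estradiol at 24 h (4744 against 1929), rc_AA799511_at 2.01-fold lower (458 against 920), and the brightest, rc_AA799511_g_at, 1.10-fold higher (4002 against 3626). For Hnrnpa1, rc_AA965147_at was 2.03-fold higher (953 against 471), M12156_at 1.10-fold higher (2866 against 2605) and both probe sets of a further entry were lower, at log2 differences of -0.73 and -0.76. Hnrnpa3 was higher on both of its probe sets, at 1.69-fold (5801 against 3427) and 2.13-fold (2989 against 1401). Genes of this family have many processed copies in mammalian genomes and near-identical relatives, and cross-hybridisation between them was not tested.

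Srsf5 was the one gene of the set at least 2-fold lower with estradiol at 24 h. This splicing factor gave 1619 with estradiol against 3968 without it at 24 h, a 2.45-fold lower value, and 2589 under the estradiol label and 3203 under the control label at 6 h. The estradiol array at 24 h was the lowest of the 4. Srsf11 gave 1386 against 949 at 24 h and 1766 against 1582 at 6 h.

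Srsf2 depended on the probe set. Its brightest gave 4824 with estradiol against 3408 without it at 24 h, and 3793 under the estradiol label and 7910 under the control label at 6 h, 2.09-fold lower with that label. The other measured probe set, rc_AA799538_g_at, gave 978 against 813 at 24 h and 1696 against 721 at 6 h, 2.35-fold higher. Opposite calls within 1 gene occurred for Srsf2 at 6 h and Hnrnpa2b1 at 24 h, of 17 genes with several measured probe sets. The median span between probe sets of such a gene was 0.37 at 24 h and 0.45 at 6 h on the log2 scale, and it reached 1 or more in 5 and 3 genes. Where each probe set lies on its transcript was not analysed here.

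**Figure D3:**
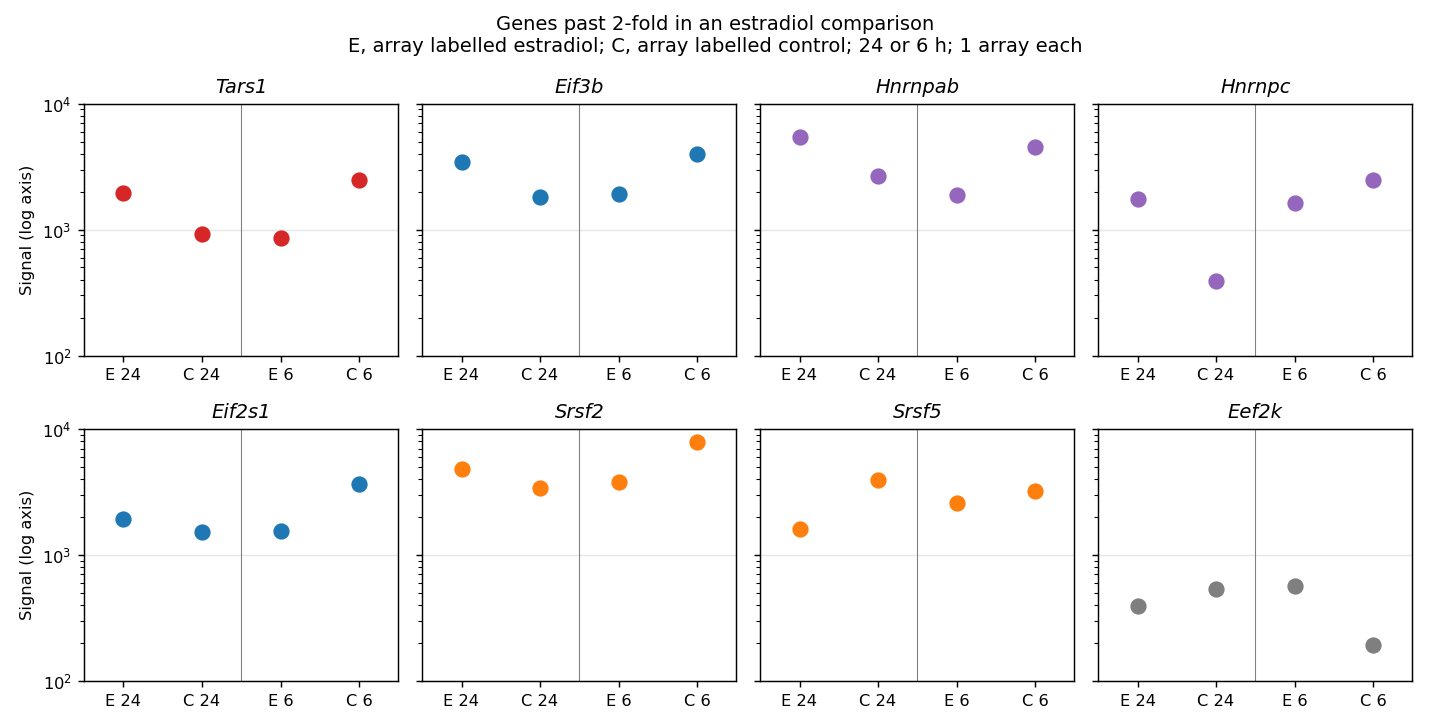
Signals on a log axis of the 8 genes whose 2-fold calls the text describes in full, each by its brightest probe set, on the arrays labelled estradiol (E) or control (C) at 24 or 6 h. Tars1, Eif3b and Hnrnpab are high on E 24 and C 6 and low on C 24 and E 6, Eif2s1 and Srsf2 are high on C 6, Hnrnpc is low on C 24, Srsf5 is low on E 24, and Eef2k is low on C 6.

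The 2 arrays labelled control were compared, 24 h against 6 h. The doubt about the 6 h labels bears on this comparison, since the estrogen targets Igf1, Hsd11b2, Pgr and S100g also had lower signals in the 24 h control pool, at log2 differences of -3.57, -2.25, -2.03 and -1.59. Whether the difference is one of time alone was not tested. Of 65 probe sets 4 were higher at 24 h, against 8.43% of all, and 11 were lower, or 16.9%, against 9.45%. By gene 7 were lower, against 9.62% of all genes, and 1, Eef2k, was higher, against 7.63%. Hnrnpc was 6.33-fold lower on the 24 h control, Eif5b 2.99-fold, Tars1 2.70-fold, Eif2s1 2.41-fold, Srsf2 2.32-fold, Eif3b 2.19-fold and Hnrnpd 2.16-fold lower. The array labelled control at 6 h also enters the comparison at 6 h, and the 24 h control the one at 24 h, so these values are no independent support for either.

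Other genes of translation and RNA handling, from lists that complete these pathways, had these counts by gene, beside 8.68% higher and 8.04% lower of all genes at 24 h and 6.47% and 5.08% at 6 h. Of 41 measured cytosolic ribosomal protein genes 2 were at least 2-fold higher at 24 h, Rpl4 at 4.35-fold and Rpl36al1 at 5.77-fold, and 0 differed at 6 h, with median log2 differences of 0.06 and -0.15. Of 9 nucleolar ribosome biogenesis genes 3 were higher at 24 h and 6 lower at 6 h, with medians of 0.48 and -1.40. Of 10 amino acid response genes 2 were higher and 1 lower at 24 h, Psat1, of serine synthesis, at 2.33-fold higher, the transporter Slc7a1 at least 2.27-fold higher and Ddit3 2.77-fold lower. At 6 h 4 of them were lower with the estradiol label, Slc7a1 at 6.19-fold, Cebpb at 4.07-fold, Atf3 at 3.71-fold and the transporter Slc7a5 at 3.45-fold. Of 19 other splicing and RNA-binding genes 4 were higher at 24 h, Zfp36 at 7.91-fold, Sfpq at 3.80-fold, Rbmx at 2.93-fold and Dhx9 at 2.38-fold. In the same list 1 was lower at 24 h, Zfp36l1 at 2.12-fold, and 0 differed at 6 h. Farsa, the phenylalanine synthetase subunit that the naming rule misses, was 3.51-fold higher at 24 h and 1.08-fold lower at 6 h. Rpl4, Rpl36al1, Zfp36, Sfpq, Dhx9 and Farsa shared with Hnrnpc a low value in the 24 h control pool, at least 2-fold under the remaining 3. So did Dkc1 of the nucleolar list, which was at the floor in that pool. Rpl4 gave 10767 with estradiol against 2475 without it at 24 h, and 8300 and 7360 under the estradiol and control labels at 6 h. Of 9 other translation factors and regulators Tsc2, a brake on mTOR, was 2.22-fold lower at 24 h, and Ppp1r15a, which directs the removal of phosphate from the eIF2 alpha subunit, was 3.36-fold lower at 6 h.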

How the data were processed

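Total RNA of 4 pools of rat myometrium was hybridised to 1 Affymetrix RG_U34A array each, all of the same lot. The probe set intensities are those the authors deposited, made with MAS5 per the submitters' processing notes, and its version was not given in the sources used here. Each deposited column had a 2% trimmed mean of 500. The scanners' experiment records were read for lot, scan day and wash errors.

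Of 8799 probe sets 59 Affymetrix controls were left out of comparisons. The platform annotation gave 1 symbol for 7018, several for 308 and none for 1473. Of the 72 chosen probe sets 70 matched a RefSeq gene by identifier, and 0 symbols changed. The members, lists and naming rule were chosen with earlier results of these data known. Named in full were genes past 2-fold in an estradiol comparison, those nearest the rule, the brightest of each class and genes with opposite probe sets.

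Signals below the 40th percentile of their array were raised to it before log2 was taken. A gene was represented by its probe set with the highest mean signal. The fit of both times used limma 3.58.1 (lmFit, eBayes) in R 4.3.3 on 6157 probe sets, with Benjamini-Hochberg adjustment. Python 3.11.15 with numpy 2.4.6 and pandas 2.3.3 did the rest. Alternatives were other scalings, floors, a pseudocount of 100, 1.5-fold and 3-fold rules, other controls and genes in place of probe sets. Probe sets ending in _x_at or _s_at were also left out. The number of arrays limits the precision.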

Additional observations from a re-analysis of the deposited data

Results flagged for a closer look

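The difference between the estradiol and control labels went opposite ways past 2-fold at the 2 times for 3 probe sets, each of a different gene. Tars1 had a log2 difference of 1.10 at 24 h and -1.54 at 6 h. Eif3b, on its probe set rc_AA875205_g_at, had 1.30 at 24 h and -1.57 at 6 h. Hnrnpab had 1.04 at 24 h and -1.25 at 6 h. With 1 array per group the difference between times was not tested. Igf1, Pgr, S100g and Hsd11b2 were also higher at 24 h and lower at 6 h by the labels, and the part of the labels in these differences was not tested.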

How the results depend on the processing

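Of 78 alternative values of the counts of probe sets 51 stayed within 1.5 times the reported count. Among those 51 are 10 counts of the limma fit, all 0. The values as deposited are also among them, and they could not move, since they already had a trimmed mean of 500. At 24 h, where 7 were higher and 3 lower, 11 and 1 were with a common median, 1 was lower with quantile normalization or the pseudocount, and 5 when the floor was the 20th percentile. The 1.5-fold rule gave 14 higher and 9 lower and the 3-fold rule 1 and 0, while by gene there were 3 and 1. Against the mean of both controls 1 was higher, and against the control of the other time 4 were higher and 6 lower. At 6 h, where 3 were higher and 7 lower, the 1.5-fold rule gave 5 and 19 and the 3-fold rule 1 and 0, and by gene 1 was higher. The mean of both controls left 0 lower, and the control of the other time gave 6 higher and 2 lower. Without probe sets ending in _x_at or _s_at, 6 were higher and 2 lower at 24 h, and 2 higher and 6 lower at 6 h. The calls of Hnrnpab and Srsf5, and that of Eef2k on its brightest probe set, rest on probe sets ending in _s_at. Signal from other sequences on them was not tested. Between the controls, with 4 higher and 11 lower, the 1.5-fold rule gave 22 lower, the 3-fold rule 2 higher and 3 lower, and genes 1 and 7. The other rules, the gene count and leaving out probe sets change how many can be called by construction, and for the other alternatives the cause was not tested. With the mean of its probe sets Srsf2 had a log2 difference of 0.087 at 6 h in place of -1.06, since its 2 measured probe sets differ in sign. The limma fit called 0 probe sets of the set under all 10 alternatives, with 0 to 2 at an unadjusted p under 0.05. That fit sets estradiol against control within each time, and the labels give no replicate numbers for a further pairing. Leaving out an array leaves no comparison within its time.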
